A study of Rattus norvegicus with 10 samples.

Results

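Inpp5f and Inpp4b encode phosphatases of phosphoinositides, and the data described here are the 1 kb tiles of hippocampal DNA methylation within 100 kb either side of 1 tile in each gene. In mRatBN7.2 coordinates, the leading tile of Inpp5f spans 183259001 to 183260000 of chromosome 1, and that of Inpp4b 26085001 to 26086000 of chromosome 19. The tables of the study place both in introns. Both leading tiles were chosen by their difference between the lines, and by their correlation with maximal oxygen uptake, in these same rats, so their own values are given as a description, with no test. The other tiles were taken by position alone. The Inpp5f window held 18 tiles and the Inpp4b window 5, together 23 of the 176032 tiles measured. Rats were from the 44th generation of lines bred for running capacity, 4 high-capacity runners (HCR; rats 1, 11, 15 and 19) and 6 low-capacity runners (LCR; rats 12, 18, 22, 24, 26 and 30). All were untreated females, 23 to 24 months old, kept without running wheels or training. The measure was reduced representation bisulfite sequencing (RRBS), in which DNA is cut at CCGG with MspI, so that CpG-rich fragments are read preferentially, and the unit is the percent of CpG calls in a tile that were methylated. Hippocampal tissue is a mixture of cell types, and a change in a cell type's share cannot be told apart from a change of methylation within it. Cell type markers could not be used to check the tissue label, as these are DNA values and no annotation of the build was used.

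Phosphoinositides are membrane lipids whose inositol ring carries phosphates that kinases add and phosphatases remove, and each form recruits its own set of proteins. In neurons they steer vesicle cycling, endosome traffic and the PI3-kinase and Akt pathway. Inpp5f encodes a phosphatase of the SAC domain family (Sac2) that acts on endosomes. In mouse brain, a short Inpp5f transcript that starts within an intron is imprinted and comes from the paternal allele. Imprinted control regions carry methylation on 1 parental allele, and their tiles are expected near the middle of the scale in every animal. Inpp4b encodes a phosphatase that acts on a lipid product of PI3-kinase and limits Akt signaling. It is known as a tumor suppressor.

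In the RefSeq gene order of another rat assembly (GRCr8), Inpp5f stands between Bag3 and Mcmbp, followed by Sec23ip, and Inpp4b between Il15 and Usp38. Coordinates of that assembly do not carry over to the tiles, so apart from the leading tiles no tile is assigned to a gene, start site or island. The promoter sequences of both genes are shown because RRBS can read only what lies near CCGG, which is in capitals here.

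Inpp5f promoter, GRCr8 chr1:192620641-192620940, plus strand: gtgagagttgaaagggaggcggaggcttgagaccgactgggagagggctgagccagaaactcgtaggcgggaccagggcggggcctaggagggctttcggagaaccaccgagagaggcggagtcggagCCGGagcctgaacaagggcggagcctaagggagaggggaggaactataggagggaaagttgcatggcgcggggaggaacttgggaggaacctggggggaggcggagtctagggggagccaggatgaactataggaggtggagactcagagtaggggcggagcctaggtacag

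Inpp4b promoter, GRCr8 chr19:43574362-43574661, minus strand: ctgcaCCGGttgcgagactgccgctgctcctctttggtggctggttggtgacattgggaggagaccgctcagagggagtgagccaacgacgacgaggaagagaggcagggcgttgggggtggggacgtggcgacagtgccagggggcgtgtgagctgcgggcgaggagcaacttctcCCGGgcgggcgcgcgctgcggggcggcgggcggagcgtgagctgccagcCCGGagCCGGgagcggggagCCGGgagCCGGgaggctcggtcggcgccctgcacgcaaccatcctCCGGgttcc

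The Inpp5f promoter held 1 CCGG and 15 CpGs, and the Inpp4b promoter 7 CCGG and 33 CpGs, CCGG reading the same on both strands. Of the 33469 RefSeq promoters of this length, 51.4% held at least 1 CCGG, and the median number of CpGs was 7. Which tiles cover these promoters was not determined.

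Averaged over the 126459 tiles measured in all 10 rats, HCR rats were at 48.5% ± 2.39 (SD, n = 4) and LCR rats at 46.6% ± 2.31 (SD, n = 6), and single rats ranged from 43.9% to 51.3%. Rats lacked a value in 2023 to 19022 tiles. The values used here are percentages alone, so the depth behind a percentage is unknown and no counting interval is given. The lines were compared with limma over 176004 tiles, and a tile counted as a differentially methylated region (DMR) if the lines differed by 5 points or more and its p, adjusted by Benjamini and Hochberg, was below 0.1. In all, 64.7% of these tiles were higher in HCR rats, with a median difference of 1.01 points. The study called its own DMRs at the same limits but with a chi-square test on counts, which percentages do not allow. A tile that is no DMR here can therefore be one in the study, as is the Inpp4b leading tile.

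The Inpp5f leading tile was more methylated in HCR rats. HCR rats 1, 11, 15 and 19 were at 100%, 81.3%, 90.2% and 100%. LCR rats ranged from 55.9% to 66.7%, with a median of 58.8%. The lowest HCR rat thus lay 14.7 points above the highest LCR rat. The means were 92.9% ± 8.98 (SD, n = 4) and 60.5% ± 4.95 (SD, n = 6), a difference of 32.4 points. Since this contrast chose the tile, no test is attached to that difference.

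The tile directly before it, from 183258001 to 183259000, did not show this gap. There HCR rats 1, 11, 15 and 19 were at 93.1%, 96.3%, 95.7% and 97.2%, and LCR rats at 80% to 98.6% with a median of 93%. Both lines were therefore high and overlapped, and the difference of 4.62 points did not pass the test (standard error 3.41, limma adjusted p = 0.834). It was 2.43 points without LCR rat 30. From this tile to the leading tile, methylation dropped in all 6 LCR rats, by 13.3 to 41.1 points. The change averaged -30.4 points ± 11.7 (SD, n = 6) in LCR rats and -2.69 ± 9.67 (SD, n = 4) in HCR rats, and 2 HCR rats rose. This step contains the value that chose the tile and was not tested. On the other side the next tile with values lay 35 kb away, so how far the difference reached after the leading tile was not measured.

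**Figure D1:**
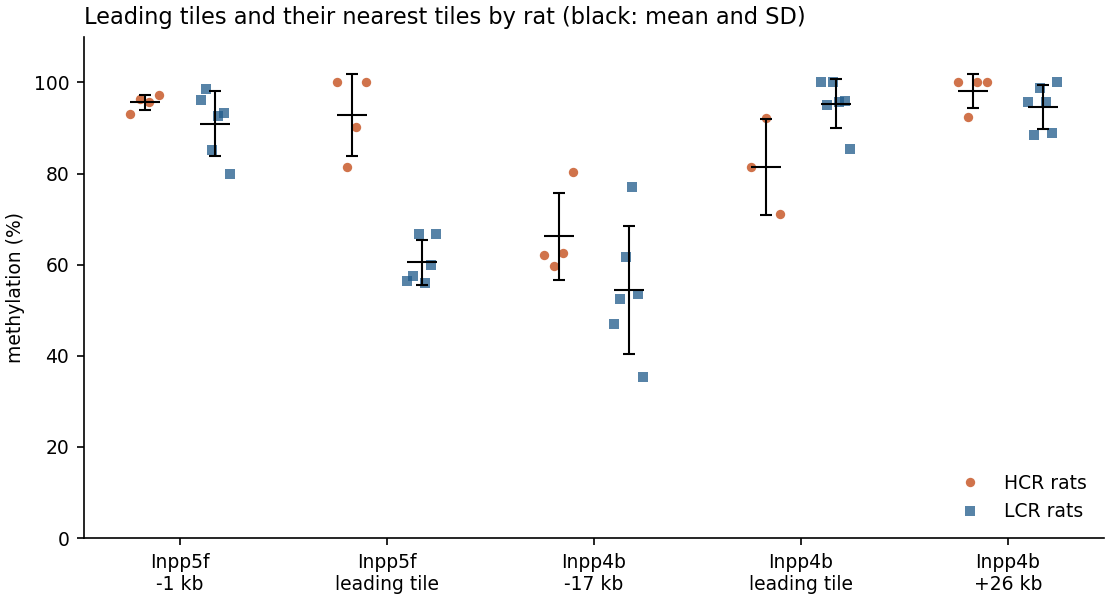
Percent methylation (y axis) of the leading tiles and the nearest tiles of each window (x axis) in single HCR (circles) and LCR rats (squares), with the mean and SD in black. At the Inpp5f leading tile the HCR rats sit at 81.3% to 100% and the LCR rats at 55.9% to 66.7%, while 1 kb earlier every rat is at 80% or more.

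The Inpp4b leading tile went in the opposite direction. HCR rats 1, 11 and 19 were at 81.4%, 92.1% and 71%, and HCR rat 15 had no value. LCR rats ranged from 85.5% to 100% with a median of 95.8%. HCR rat 11 lay within the LCR range, so the lines overlapped. The means were 81.5% ± 10.5 (SD, n = 3) and 95.3% ± 5.32 (SD, n = 6), a difference of -13.8 points. With 1 HCR rat left out, the difference ran up to -8.56 points (without HCR rat 19) and down to -19.1 points (without HCR rat 11). The tile was thus fully or nearly fully methylated in most LCR rats and somewhat lower in the HCR rats measured.

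The nearest tiles did not share that direction. The tile 17 kb before it, from 26068001 to 26069000, was at 62%, 59.7%, 62.6% and 80.4% in HCR rats 1, 11, 15 and 19. In LCR rats it ranged from 35.3% to 77% with a median of 53%. The lines overlapped, and the difference of 11.7 points (standard error 8.17) did not pass (limma adjusted p = 0.822). Without HCR rat 19 it was 6.96 points. The tile 26 kb after the leading tile was at 98.1% ± 3.8 (SD, n = 4) in HCR rats, against 94.6% ± 4.89 (SD, n = 6) in LCR rats, with 3 HCR rats at 100%. The tile 43 kb after it was at 97.3% ± 2.84 (SD, n = 3) and 93.2% ± 6.54 (SD, n = 5). The lines overlapped in both tiles, and the differences of 3.5 and 4.07 points did not pass (limma adjusted p = 0.847 and 0.873). All 4 other tiles of the Inpp4b window were nominally higher in HCR rats, where the leading tile was lower.

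The Inpp5f window held stretches nearly without methylation among tiles methylated to varied levels. The first low stretch lay 69 and 68 kb before the leading tile, and the second 57 to 62 kb after it. Of the 18 tiles, 6 had a mean under 5% over the rats, 3 were at 5 to 20%, 5 at 20 to 80% and 4 at 80 to 95%. In the whole series 15.4% of tiles were under 5% and 40% at 20 to 80%. The 6 lowest tiles were at 0.207% to 2.86% in every rat, and their differences between the lines were 0.442 points or less in size. These tiles were therefore nearly without methylation in both lines, whichever gene they belong to. The tile 57 kb after the leading tile was typical, at 1.09% ± 0.241 (SD, n = 4) in HCR rats, against 1.08% ± 0.184 (SD, n = 6) in LCR rats.

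**Figure D2:**
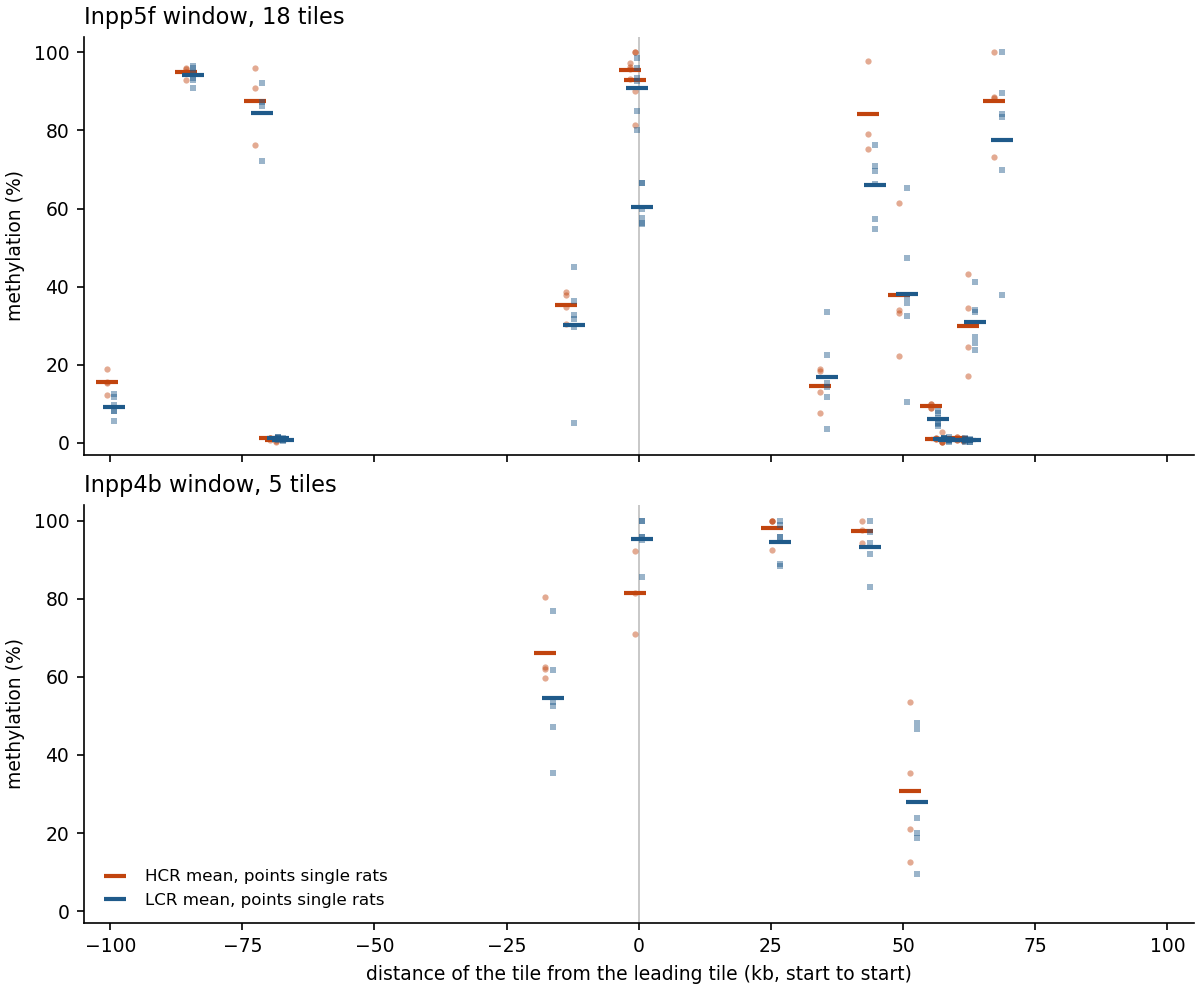
Percent methylation (y axis) of every tile of the Inpp5f window (top) and the Inpp4b window (bottom) against its distance from the leading tile in kb (x axis). Dashes are the means of HCR (orange) and LCR (blue) rats and points are single rats. The Inpp5f window holds 2 stretches near 0%, and the Inpp4b window has no tile there.

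Beside these unmethylated stretches lay tiles of low and intermediate level. The tile 56 kb after the Inpp5f leading tile, adjacent to the second stretch, was at 8.9%, 9.88%, 10.1% and 8.82% in HCR rats 1, 11, 15 and 19. LCR rats were at 4.43% to 8.18% with a median of 5.76%. All HCR rats were above all LCR rats, by a gap of 0.64 points. The difference was 3.31 points (standard error 0.827, limma adjusted p = 0.355), under the 5 points a DMR needs. On the far side of the same stretch, the tile at 63 kb rose to 29.9% ± 11.5 (SD, n = 4) in HCR rats, against 30.9% ± 6.55 (SD, n = 6) in LCR rats. The difference of -0.967 points had a standard error of 5.86 (limma adjusted p = 0.986).

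The tile at 68 kb ranged from 73.2% to 100% in HCR rats and from 37.8% to 100% in LCR rats, LCR rat 30 being the lowest and the others reaching from 69.9% upward. Its difference of 10.1 points had a standard error of 10.5 (limma adjusted p = 0.886) and was 2.18 points without LCR rat 30. The tile at 44 kb, from 183303001 to 183304000, was at 79.1%, 97.8% and 75.4% in HCR rats 1, 15 and 19, with no value in HCR rat 11. LCR rats were at 54.8% to 76.4% there, with a median of 68%. After the leading tile this was the largest difference of the window, 18.2 points (standard error 6.55), and it did not pass (limma adjusted p = 0.595). HCR rat 19 lay below the highest LCR rat, so the lines overlapped. The tile at 35 kb was at 14.6% ± 5.28 (SD, n = 4) in HCR rats, against 16.8% ± 10.2 (SD, n = 6) in LCR rats, where LCR rat 30 was the highest at 33.5%.

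At the start of the window, 100 kb before the leading tile, HCR rats 1, 11, 15 and 19 were at 19.05%, 15.5%, 12.2% and 15.3%. LCR rats were at 5.66% to 12.5% with a median of 8.94%, so that the lines overlapped only between 12.2% and 12.5% (difference 6.21 points, standard error 1.63, limma adjusted p = 0.383). The tile at 85 kb before the leading tile was high and even, at 90.9% to 96.6% over all rats. The tile 72 kb before it was at 87.7% ± 10.3 (SD, n = 3) in HCR rats, against 84.5% ± 8.57 (SD, n = 4) in LCR rats. Just outside the limits of the window, the tiles 111 kb before and 111 kb after the Inpp5f leading tile were at 92.7% and 89.4% in HCR and 84.7% and 82.3% in LCR rats. For Inpp4b the next tiles lay 133 kb before, at 98.7% and 97.1%, and 163 kb after, at 8.02% and 7.73%.

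Of the 17 other tiles of the Inpp5f window, 0 were DMRs, and of the 4 other Inpp4b tiles also 0. At an unadjusted p under 0.05 limma found 3 and 0 of them, beside 7.18% of all tiles tested. With the leading tile, the Inpp5f window held 1 DMR and the Inpp4b window 0, beside 0.0858% of all tiles tested. That 1 is the leading tile itself, which this contrast chose, and it is counted here without being a test. At an unadjusted p under 0.005 and 5 points the Inpp5f window held 2 tiles, the leading tile and the tile at -100 kb, beside 1.03% of all tiles. Of the 16 Inpp5f tiles measured in all rats, 2 separated the lines completely (the leading tile and the tile at 56 kb), beside 1.89% of all such tiles, and among the 3 such Inpp4b tiles 0. As the windows were placed on a tile chosen by this contrast, nothing is read from these counts. Among the other tiles, 12 of 17 at Inpp5f and 4 of 4 at Inpp4b were nominally higher in HCR rats, with median differences of 0.442 and 3.79 points. HCR rats were also nominally higher in most tiles of the series, as given above.

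**Figure D3:**
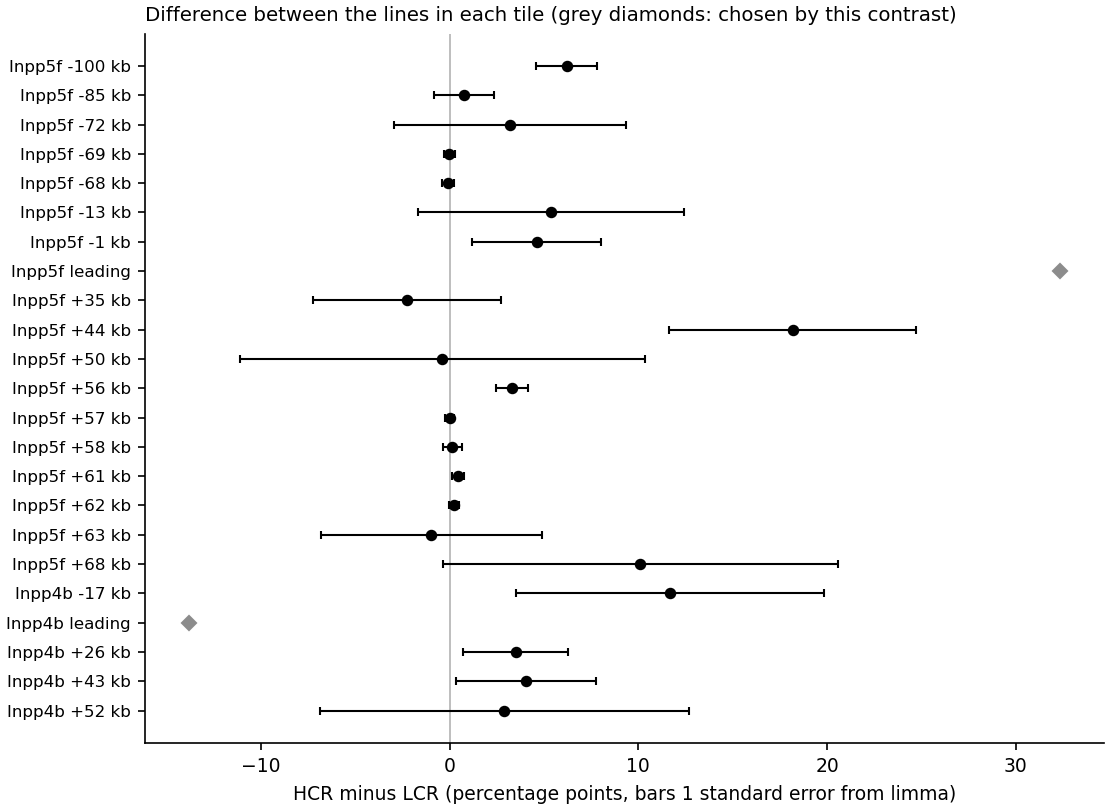
Difference of HCR minus LCR means in percentage points (x axis) for each of the 23 tiles (y axis, in order along each window), with bars of 1 standard error from limma. The grey diamonds are the leading tiles, chosen by this contrast and drawn without a bar, at 32.4 and -13.8 points. The 6 nearly unmethylated Inpp5f tiles sit within 0.442 points of 0.

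No tile in either window met the definition of a half-methylated tile, a mean of 40 to 60% with every rat within 30 to 70%. In the series, 4197 tiles (3.32% of those with a value in every rat) met it. The Inpp5f leading tile, at a mean of 73.5% over all rats, was at 55.9% to 66.7% in LCR rats and at 81.3% to 100% in HCR rats. By the mean over all rats, the Inpp5f tile nearest to the definition lay 50 kb after the leading tile, at 37.98%. Its values were 34.1%, 33.2%, 22.2% and 61.5% in HCR rats 1, 11, 15 and 19, and 10.6% to 65.2% with a median of 36.6% in LCR rats. It therefore differed widely between rats of one line, while the line means were alike (37.8% and 38.1%). The tile 13 kb before the leading tile was at 37.8%, 34.9%, 30.3% and 38.8% in HCR rats 1, 11, 15 and 19, and 5 of the LCR rats were at 29.7% to 45.1%. LCR rat 18 alone was at 5.05%. With that rat the difference of the lines was 5.37 points (standard error 7.02, limma adjusted p = 0.915), and without it 0.369 points. At Inpp4b, the tile at -17 kb had a mean of 59.2% but spread from 35.3% to 80.4%. These windows thus held no tile near the middle of the scale in every rat, and tiles not measured by RRBS are not covered by that count. Only 16 Inpp5f and 3 Inpp4b tiles had a value in every rat. With so few, and a share of 3.32% in the series, a count of 0 says little about these loci. Whether the imprinted start known from mouse lies in a measured tile was not determined.

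The 2 windows differed in how densely RRBS covered them. The Inpp5f window had values in 18 of 201 possible tiles and the Inpp4b window in 5 of 201. Around all tiles of the series the median was 23 tiles in a window of this width, with a range of 1 to 99. Fewer tiles than at Inpp4b were found around 4.73% of all tiles, and fewer than at Inpp5f around 37.8%. The Inpp4b window had no tile under 20%, with 2 at 20 to 80%, 2 at 80 to 95% and 1 above 95%. Averaged over its 16 tiles measured in all rats, the chosen leading tile among them, the Inpp5f window was at 32.5% ± 2.14 (SD, n = 4) in HCR rats, against 28.7% ± 1.65 (SD, n = 6) in LCR rats. Single rats ranged from 30.4% to 35.2% and from 26.5% to 31.2%, overlapping in range. The difference of 3.74 points was 1.83 points without the leading tile. HCR rats were also higher over all tiles of the series with a value in every rat, at 48.5% against 46.6%. A difference of 1.83 points is therefore not particular to this window. The Inpp4b window, with 3 such tiles and without the leading tile, was at 65% ± 8.82 (SD, n = 4) and 58.98% ± 8.41 (SD, n = 6), its difference of 6.02 points being smaller than the SD of either line. Without HCR rat 19, the difference over these 3 tiles was 1.69 points. With all 5 tiles that had at least 3 values per line, the leading tile among them, and with every rat, the difference was 1.67 points.

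Rats differed in overall methylation, and 1 tile of the windows passed a test of moving with it, a call that single rats decided. This was examined after the values were seen, with limma fitted over all tiles with a value in every rat, the mean level of the rat as a covariate and line as a second term. The Inpp4b tile at 52 kb, from 26137001 to 26138000, was at 21.1%, 35.5%, 12.7% and 53.6% in HCR rats 1, 11, 15 and 19. LCR rats were at 9.58% to 48.2% with a median of 21.9%. The high values belonged to HCR rats 11 and 19 and LCR rats 18 and 24, which were also the 4 rats of highest mean level. This tile gained 6.75 points per point of the rat's mean level (standard error 0.987, limma adjusted p = 0.0605), while the difference of the lines in it was 2.89 points (standard error 9.77, limma adjusted p = 0.972). It was the 1 tile of 19 with a value in every rat that passed, beside 1.53% of all such tiles. Its slope was above that of 98.3% of the tiles of intermediate level (a mean of 20 to 80%), whose median slope was 1.87.

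The other intermediate tiles gave slopes of both signs. The Inpp5f tile at 50 kb gained 5.45 points per point (standard error 1.86, limma adjusted p = 0.192) and the Inpp4b tile at -17 kb 3.86 (standard error 1.42, adjusted p = 0.219), and neither passed. The Inpp5f tile at 63 kb had a slope of 1.24 and that at -13 kb of -1.17 (limma adjusted p = 0.691 and 0.768). The slope of the Inpp5f leading tile was -0.856 within the lines (standard error 1.02), given without a test. The number of calls of this fit depended on single rats. It was 1940 over all tiles, and 6 to 1173 with 1 rat left out. The Inpp4b tile at 52 kb kept its slope, 6.32 to 7.52, but passed in only 4 of these 10 fits (adjusted p from 0.0686 to 0.133). It was lost without HCR rats 1, 15 or 19 and without LCR rats 12, 24 or 26. The rat of highest mean level, HCR rat 19 at 51.3%, also lacked the fewest tiles (2023), and LCR rat 12, at 45.3%, the most (19022). Other rats did not follow that order. LCR rat 26, at 45.8%, lacked 5287 tiles and LCR rat 18, at 49.0%, lacked 11348. The part of missing tiles in these slopes was not tested.

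**Figure D4:**
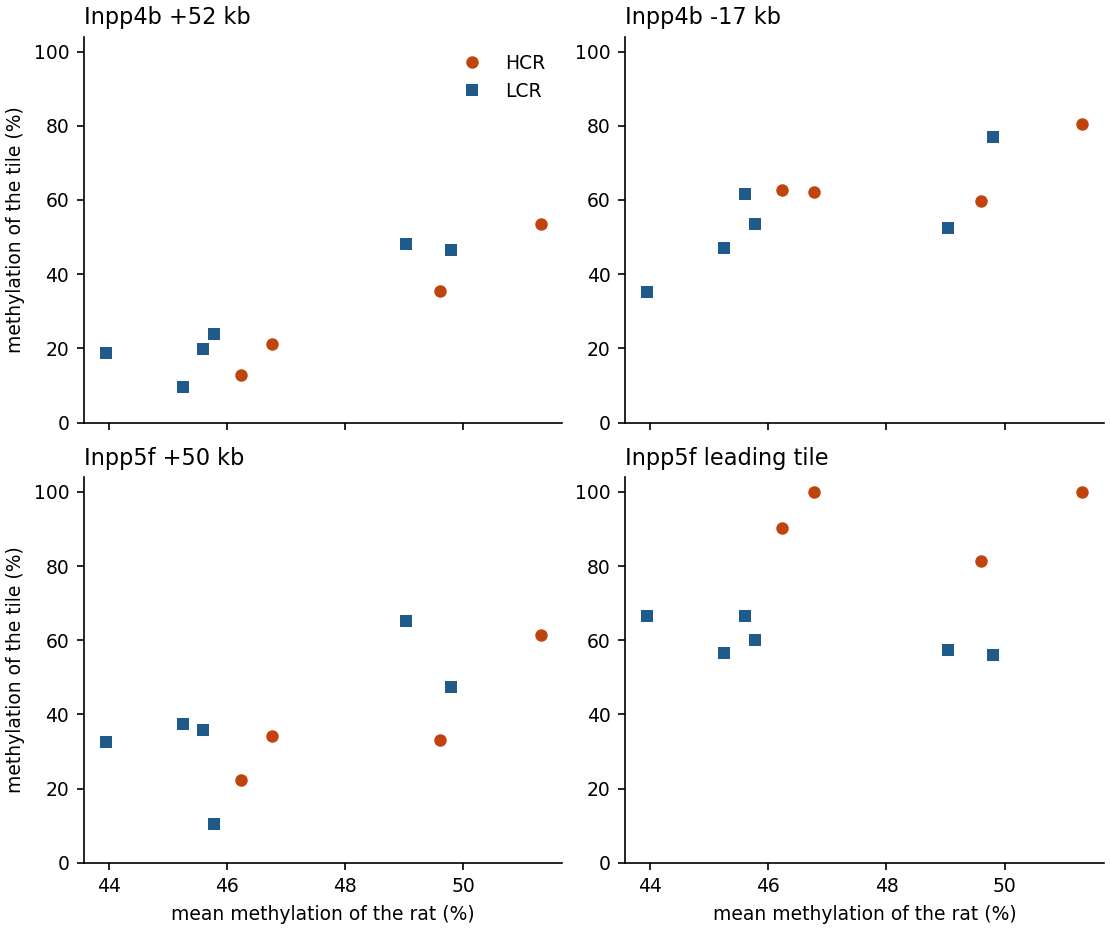
Percent methylation of 4 tiles (y axes) against the mean methylation of each rat over all tiles with a value in every rat (x axis), for HCR (circles) and LCR rats (squares). The Inpp4b tile at 52 kb rises from 9.58% to 53.6% across the rats, while the Inpp5f leading tile separates by line with no such rise.

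Other genes of the pathway were taken from a list of 60 phosphoinositide phosphatases, kinases and Akt pathway genes. The study's tables, 1 of them read only in part, place tiles in 8 of them, Inpp5f and Inpp4b included. These tables list tiles that the study called DMRs by its own test on the same rats. Directions, gaps between the lines and p values of these tiles are therefore no independent evidence. The 6 other genes had 7 tiles, 5 nominally higher and 2 lower in HCR rats, with a median difference of 7.53 points. In the fit over all tiles 0 of these 7 were DMRs (limma adjusted p from 0.371 to 0.666). All 7 had an unadjusted limma p under 0.05, which their choice by the same contrast favours, and nothing is read from it.

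Among the other phosphatases, Inpp5b was the gene with listed tiles. Inpp5b encodes a phosphatase of endosomal and ciliary membranes, related to the Lowe syndrome gene OCRL. Its exonic tile on chromosome 5 from 137051001 to 137052000 was at 64.3%, 69%, 65% and 67.2% in HCR rats 1, 11, 15 and 19, and at 74.3% to 92.8% in LCR rats. The lines did not overlap (-14.8 points, standard error 3.8, limma adjusted p = 0.371). Its intronic tile, from 137014001 to 137015000, went the other way, at 14.2% ± 4.53 (SD, n = 3) in HCR against 6.51% ± 4.01 (SD, n = 4) in LCR rats, with overlap (limma adjusted p = 0.615).

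Of the kinases, Pik3c3 (the class III PI3-kinase Vps34 of endosomes and autophagy) had an upstream tile at 65.2% ± 10.01 (SD, n = 4) in HCR rats, against 78.3% ± 6.16 (SD, n = 5) in LCR rats. Pik3r5, a regulatory subunit of PI3-kinase gamma, had an exonic tile at 93.4% ± 4.44 (SD, n = 4) and 85.2% ± 5.06 (SD, n = 6). The exonic tile that Pip5k1c, which makes the main phosphoinositide of the synapse, shares with Cactin was at 28.7% ± 5.34 (SD, n = 4) and 21.2% ± 1.45 (SD, n = 6). The Pik3r5 and Pip5k1c tiles showed no overlap and the Pik3c3 tile did.

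Of the targets, the exonic tile of Akt1 was at 90.6% to 93.7% in HCR and 81.6% to 89.4% in LCR rats, with no overlap (6.06 points, standard error 2.03, limma adjusted p = 0.552). The promoter tile of Rptor, the scaffold of the mTOR complex that senses nutrients, was at 62.02% ± 8.81 (SD, n = 4) and 43.9% ± 10.3 (SD, n = 6), with overlap (adjusted p = 0.648).

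**Figure D5:**
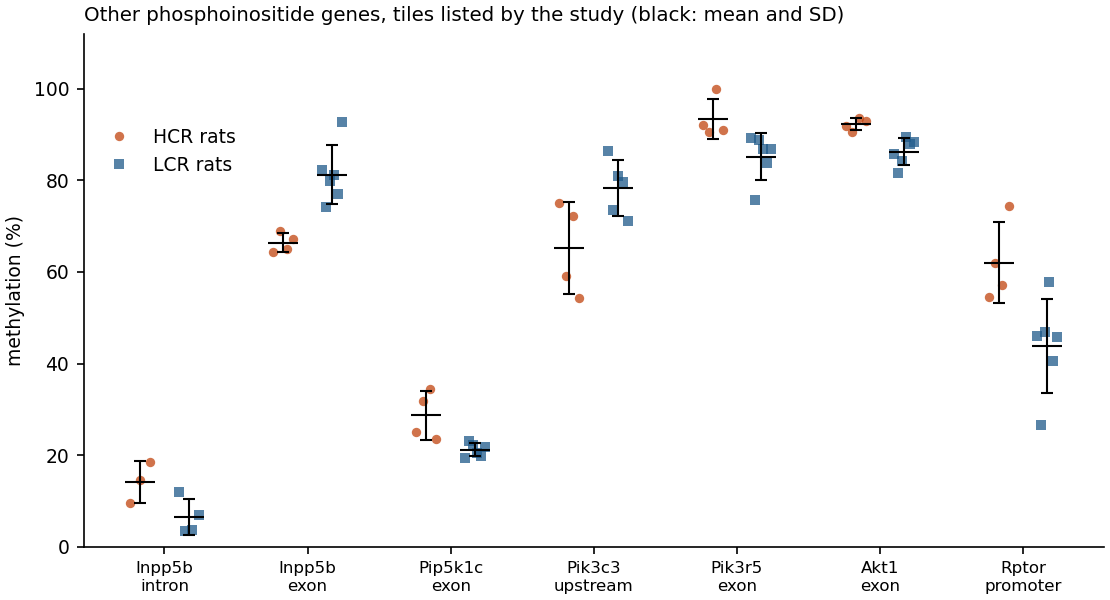
Percent methylation (y axis) of the 7 tiles that the study's tables assign to 6 other phosphoinositide genes (x axis, with the gene feature) in single HCR (circles) and LCR rats (squares), mean and SD in black. The exonic Inpp5b tile is at 64.3% to 69% in HCR and 74.3% to 92.8% in LCR rats.

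The tiles most like each leading tile across the rats were found by Pearson's r among 70032 and 70037 tiles outside the window with a value in every rat and an SD of at least 5 points, a choice of extremes that is given with no test. For Inpp5f over 10 rats, r was -0.969 with a tile of Vti1a, a SNARE gene (chromosome 1 from 254636001 to 254637000). It was 0.967 with a tile of Ehbp1, a gene of endocytic traffic (chromosome 14 from 96332001 to 96333000). The other 3 tiles, with r of -0.976, 0.96 and 0.959, carried no gene in the study's tables. All 5 differed between the lines by 18.5 to 46.3 points in size, which the leading tile does as well. For Inpp4b over 9 rats, r was -0.957 to -0.965 with 5 tiles on chromosomes 1, 5, 7 and 10, none with a gene in those tables. All 5 were nominally higher in HCR rats, as tiles chosen for a negative r with a tile lower in HCR rats tend to be.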

How the data were processed

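Percent methylation per tile of 1000 bp was deposited separately for each rat. Per the study's methods, reads passed FastQC and MultiQC and RRBS trimming (Trim Galore 0.6.10). Bismark, running Bowtie2, placed them on mRatBN7.2 (rn7). In methylKit, the authors dropped CpGs of low or extreme coverage and required 3 rats per line for a tile. Of the HCR samples, 2 had been left out before deposit for failing quality control. Depth was unknown, so no coverage minimum or count test was applied.

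Limma 3.58.1 in R 4.3.3 was fitted to the percent values of 4 HCR and 6 LCR rats, with the variance trended on the mean level and no covariates, over tiles with at least 3 values per line that varied. The Benjamini-Hochberg adjustment covered 176004 tiles. Group labels came from the sample records. The study's methods name no separate library or sequencing batch. They do say that samples were pooled before bisulfite conversion and amplification, without naming the rats of each pool. An effect of these pools was not tested. The fit was tested on simulated data with known differences, of which it missed many, so a tile that did not pass is not shown to be alike in the lines. Python 3.11.15 with NumPy 2.4.6, pandas 2.3.3 and Matplotlib 3.10.9 was used for summaries and figures.

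The members and lists were chosen with earlier results of these data known. Every tile of both windows was accounted for, and named genes followed a rule of the leading tiles, their neighbours, the largest differences and the pathway list. An imprinted gene list and cell type markers were set up but not used, since gene coordinates of the build of the tiles were not used here. Gene names of tiles came from the study's tables, of which 1 was used in part, and gene order and promoters from RefSeq (GRCr8). Alternatives were a logit scale, complete tiles only, no trend, equal rat means, quantile normalization, an unadjusted limit, other windows and definitions, and leaving out each rat.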

Additional observations from a re-analysis of the deposited data

Results flagged for a closer look

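In 5 of the 42 groups of values tested in the windows, 1 rat stood apart from the rest of its line. Chance flags about 1 group in 20 if values are normally distributed. These are percentages, some near 0% or tied at 100%, so that rate need not hold and no excess is read from the 5. The tile 69 kb before the Inpp5f leading tile was at 0.754% in HCR rat 1, the next HCR rat being at 1.31%. The tile 58 kb after it was at 2.86% in HCR rat 11 and at 0.35% or less in the other HCR rats. Both tiles were nearly unmethylated in every rat. At Inpp4b, the tile at -17 kb was at 80.4% in HCR rat 19 (next 62.6%), the tile at 26 kb at 92.4% in HCR rat 11 (the others at 100%), and the leading tile at 85.5% in LCR rat 30 (next 94.9%).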

How the results depend on the processing

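The number of DMRs over all tiles was 151, and became 67 on the logit scale, 262 without the trend and 1816 at the unadjusted limit; with 1 rat left out it was 22 to 100. In the Inpp5f window the count of 1, the leading tile that this contrast chose and so no test of it, became 0 on the logit scale and after quantile normalization, and 2 at the unadjusted limit. With 1 rat left out it ranged from 0 to 1, lost in 8 of 10 fits (without HCR rats 1, 15 or 19 or LCR rats 12, 18, 24, 26 or 30). The Inpp5f window mean difference, 3.74 points with the chosen leading tile included, was 1.83 with equal rat means and 7.94 within 50 kb. Within 50 kb the mean rests on fewer tiles, so the leading tile weighs more. Nothing is read from the larger value. The Inpp4b window mean difference was 4.11 with equal rat means, and 1.69 to 8.84 with 1 rat left out, lowest without HCR rat 19. With all 5 tiles it was 1.67, and after quantile normalization of the 3 tiles 3.57. By a mean of 40 to 60% alone, 1 Inpp4b tile was half-methylated, beside 13568 of 126459 tiles of the series. The Inpp4b tile at 52 kb, 2.89 points, turned to -0.274 after quantile normalization, and to -0.759 and -4.74 without LCR rat 12 and HCR rat 19 (-4.74 to 8.90 with 1 rat left out). The slope on the mean level turned to 0.618 at the Inpp5f tile at -13 kb without LCR rat 18 (-2.40 to 0.618 with 1 rat left out), and to 2.11 at the Inpp5f leading tile without a term for line. These slopes and their alternatives were chosen after seeing the data. The Inpp5f leading difference was 29.98 to 36.2 points with 1 rat left out. The cause of these changes was not tested. No paired analysis was possible because the lines share no rat numbers. Unknown depth and 3 or 4 HCR rats limit every tile.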
